A study of Arabidopsis thaliana with 2 samples.

Results

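The 9 probe sets described here measure 10 genes of the response of Arabidopsis thaliana to abscisic acid (ABA) and to dehydration, out of 22746 plant probe sets on the Affymetrix ATH1 array. They were taken by identifier. The genes are DREB2A, NCED3, RD29A, RD29B, RAB18, COR47, ERD10, COR15A and the pair KIN1 and KIN2, which share a probe set. The cadmium group was 1 sample of whole Col-0 seedlings, 7 days old, given cadmium, a heavy metal poisonous to plants, at 200 µM. The control group was 1 sample of untreated Col-0 seedlings of the same age. All seedlings grew on diluted MS medium at 28 °C, as the labels give it, with 16 h of light and 8 h of darkness. The labels disagree on the exposure, which is 4 h in the treated sample's own labels and 6 h in the treatment protocol. Each value is the deposited log2 signal of a probe set after RMA (robust multi-array average), and each difference is the cadmium value minus the control value. With 1 array per group there is no p-value, no error between plants and no replicate check for any difference below, and the number of arrays limits the precision.

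ABA is the hormone that plants make when water runs short. Its synthesis from carotenoids is limited by dioxygenases of the NCED family, and it acts through receptors that inhibit PP2C phosphatases, so that SnRK2 kinases can activate bZIP factors at the ABA-responsive element of target promoters. A parallel route needs no ABA. In it, DREB and CBF factors bind the dehydration-responsive element, which many drought and cold genes carry. Many of the targets of both routes are hydrophilic proteins, among them dehydrins and other late embryogenesis abundant (LEA) proteins, which protect membranes and enzymes when cells lose water or freeze.

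Of the 9 probe sets, 8 were higher and 1 was lower on the cadmium array than on the control array, and the median difference was 0.66 on the log2 scale, against 0.02 over all plant probe sets. Values at least 2-fold higher were measured for 3 members, KIN1/KIN2, DREB2A and COR15A, and none was lower by as much. Over all plant probe sets, 0.422% were higher and 0.624% were lower by 2-fold or more, while 54.7% had a difference above 0 and 44.7% one below 0. The members were chosen with results of these data known, so their counts describe the set and test nothing. Without replicates, the control probe sets of the same pair of arrays give the scatter available for comparison, which holds no variation between plants. The 16 probe sets of actin, GAPDH and ubiquitin, which are widely used as reference transcripts, differed by -0.08 to 0.25. The 27 Bacillus and trpn control probe sets differed by -0.07 to 0.27, and the hybridization controls, bacterial and phage transcripts added to labelled RNA, by -0.22 on average. Of the members, 6 lay above the range of actin, GAPDH and ubiquitin, 1 lay below it and 2 lay within it. Many other plant probe sets lay outside that range too. Among them were 2288 with differences from -0.4 to -0.2 and 529 with differences from 0.4 to 0.6. The share of all plant probe sets outside it was not counted, so a place outside it does not by itself set a member apart. In whole seedlings, a change in the share of a tissue and a change of RNA within its cells cannot be told apart.

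**Figure D1:**
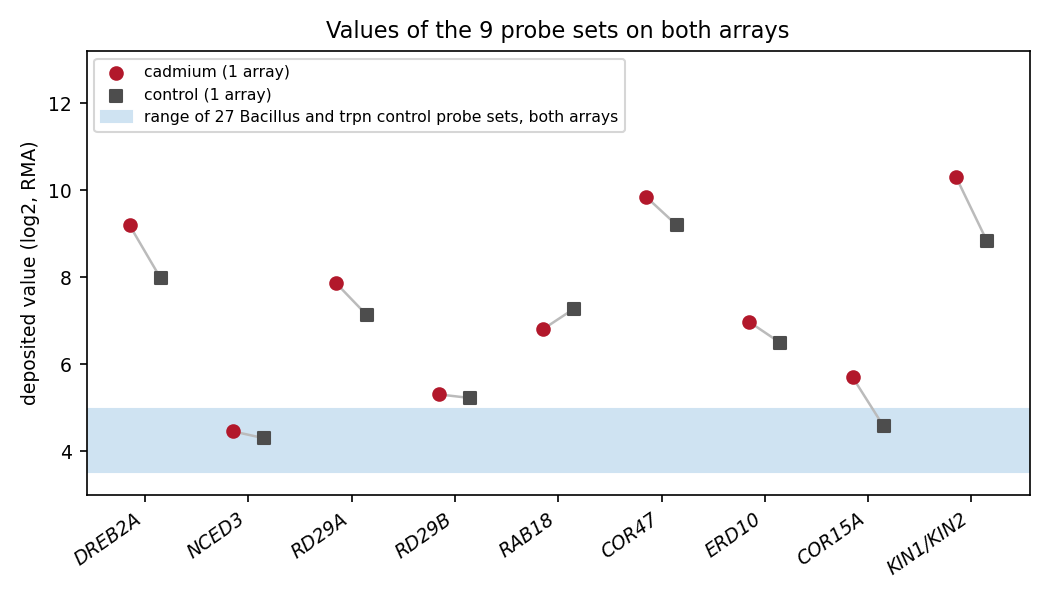
Deposited log2 values (vertical axis) of the 9 probe sets on the cadmium array (red circles) and the control array (grey squares), 1 array each. The shaded band is the range of 27 Bacillus and trpn control probe sets on both arrays. RAB18 alone was lower with cadmium, NCED3 lay inside the band on both arrays, and heights of different probe sets are not comparable.

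DREB2A (AT5G05410, probe set 250781_at) encodes a transcription factor that binds the dehydration-responsive element and is known from drought, salt and heat stress. Its value was 9.20 on the cadmium array and 7.98 on the control array. The difference of 1.22, or 2.32-fold, was exceeded by 58 of the 22746 plant probe sets. It was the second largest among the members. DREB2A protein is known to be short-lived in unstressed plants, and transcript arrays do not measure its amount.

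NCED3 (AT3G14440, probe set 257280_at) encodes the dioxygenase best known for drought-induced ABA synthesis. Its value was 4.46 on the cadmium array and 4.30 on the control array, a difference of 0.16. Both values lay among those of the 27 Bacillus and trpn control probe sets, which ran from 3.56 to 4.98 on the cadmium array and from 3.52 to 4.95 on the control array. These probe sets match no plant transcript. Whether their RNAs were added to the samples is not given in the sources used here, so that the band is no measured background. The table has no detection calls, and neither the presence of NCED3 transcript nor a change in it can be judged from these values.

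RD29A and RD29B are direct neighbours in the RefSeq annotation (TAIR10.1), with 0 protein-coding genes between them. The promoter of RD29A is known to respond through both routes, while that of RD29B is known to depend mainly on ABA. RD29A (AT5G52310, probe set 248337_at) had a value of 7.86 on the cadmium array and 7.12 on the control array. The difference of 0.74, or 1.67-fold, was exceeded by 200 plant probe sets. RD29B (AT5G52300, probe set 248352_at) had 5.31 on the cadmium array and 5.23 on the control array, a difference of 0.08. It lay within the range of the actin, GAPDH and ubiquitin probe sets, and it was just below 0 after subtraction of a smooth curve (lowess) that followed the differences along the signal range. The neighbours thus had unequal differences on this pair of arrays, which were not tested against each other.

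RAB18 (AT5G66400, probe set 247095_at) encodes a dehydrin that is known as a strongly ABA-induced gene. It was the only member with a lower value with cadmium, 6.80 on the cadmium array and 7.27 on the control array. The difference was -0.47, a 1.39-fold lower value, and 887 plant probe sets had a more negative one. It was -0.25 when the arrays were scaled to the hybridization controls, which shifts the median of all plant probe sets to 0.24.

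COR47 and ERD10 are also direct neighbours and encode related acidic dehydrins that accumulate in cold and drought. COR47 (AT1G20440, probe set 259570_at) had a value of 9.85 on the cadmium array and 9.19 on the control array. Its difference of 0.66, or 1.58-fold, was exceeded by 252 plant probe sets. ERD10 (AT1G20450, probe set 259516_at) had 6.97 on the cadmium array and 6.49 on the control array. Its difference of 0.48, or 1.39-fold, was exceeded by 546 plant probe sets. Both lay below 2-fold and above the range of the reference transcripts, as many other plant probe sets did. At a lower limit of 1.5-fold, 5 members were higher with cadmium, among them COR47 and RD29A, and 0 were lower, where 1.46% of all plant probe sets were higher and 2.49% were lower.

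COR15A (AT2G42540, probe set 263497_at) encodes a small protein of the chloroplast stroma that protects chloroplast membranes during freezing. It had a value of 5.70 on the cadmium array and 4.58 on the control array, a difference of 1.13, or 2.18-fold. Its control value lay within the range of the Bacillus and trpn probe sets, and its cadmium value lay above it. With 32 added on the linear scale, which damps differences at low signal, the value was 1.51-fold and no longer reached 2-fold. The size of the difference is therefore uncertain.

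KIN1 (AT5G15960) and KIN2 (AT5G15970), which encode small hydrophilic proteins induced by cold, ABA and drought, are direct neighbours measured by 1 probe set, 246481_s_at, that matches both. Its value was 10.31 on the cadmium array and 8.83 on the control array. The difference of 1.47, or 2.78-fold, was the largest of the set and was exceeded by 25 plant probe sets. With 32 added to each linear value it was 2.66-fold. How much of the signal came from either gene cannot be read from a shared probe set.

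**Figure D2:**
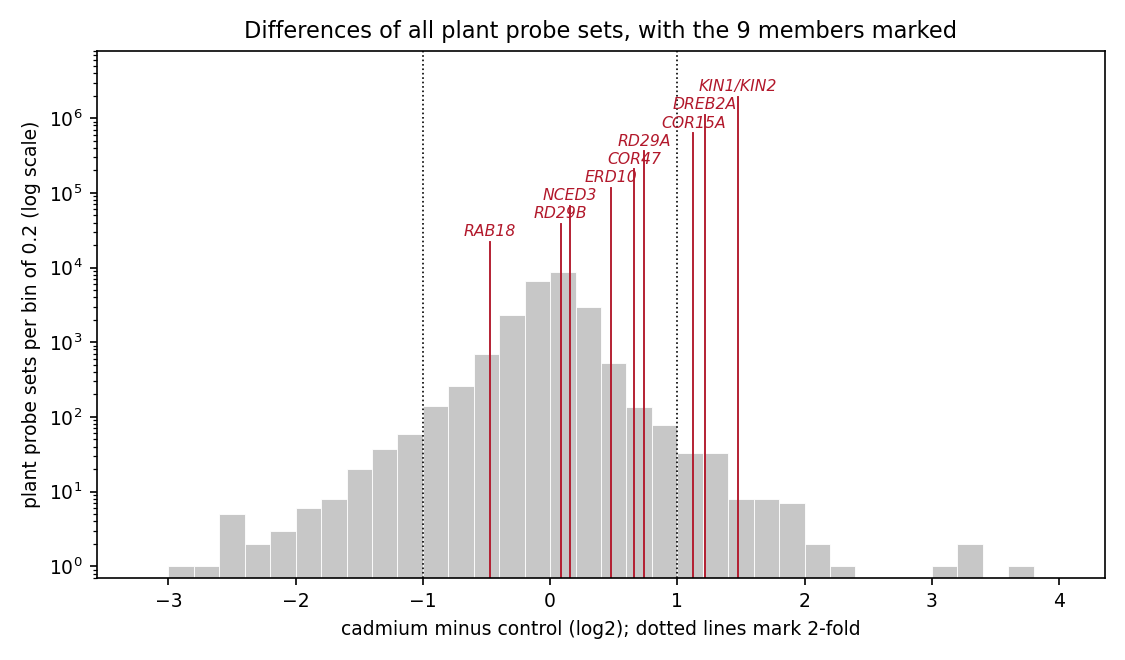
Number of plant probe sets (vertical axis, log scale) by their difference between the cadmium and the control array (horizontal axis, log2, bins of 0.2), with the 9 members marked by red lines whose heights only separate the names. KIN1/KIN2, DREB2A and COR15A lie beyond the 2-fold line at 1, and RAB18 lies left of 0 at -0.47.

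The 7 probe sets of target genes ran from -0.47 for RAB18 to 1.47 for KIN1/KIN2, with a median of 0.66, 6 above 0 and 1 below.

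**Figure D3:**
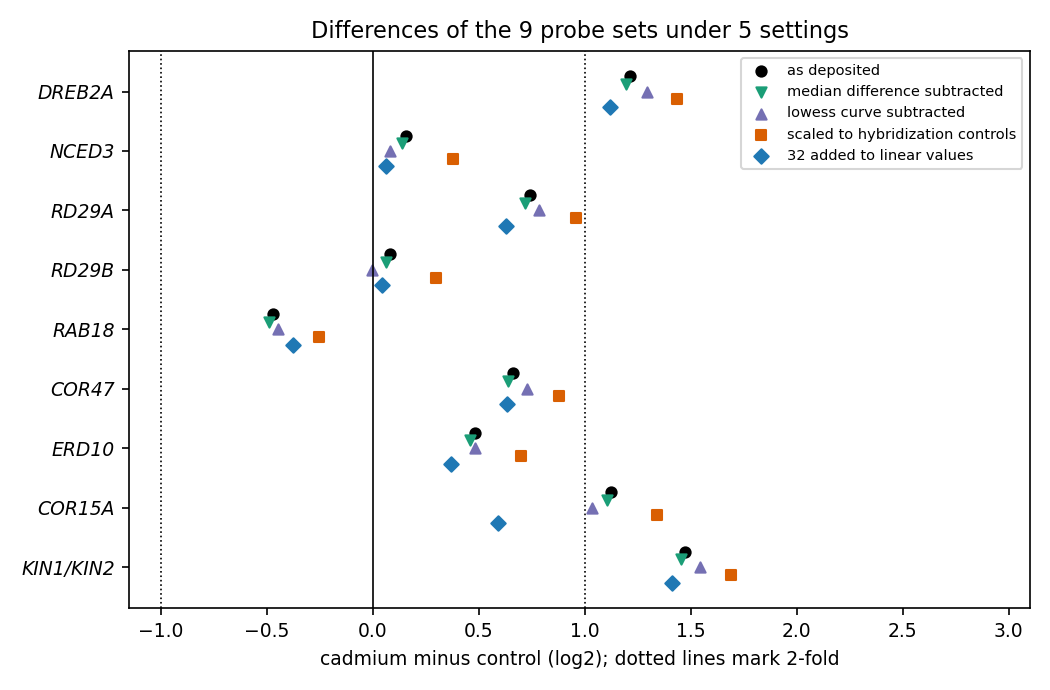
Difference between the cadmium and the control array (horizontal axis, log2) of each of the 9 probe sets, as deposited and under 4 alternatives. The sign of RD29B alone changed, to just below 0 with the lowess curve, and COR15A fell short of 2-fold with 32 added.

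Of the pathway, 71 genes were listed by locus in 7 groups (ABA synthesis, breakdown, receptors, PP2C phosphatases, SnRK2 kinases with bZIP factors, CBF and DREB factors, other targets), 2 of them the members NCED3 and DREB2A. A probe set was paired with 3 of the others in the platform's gene table, so 66 were not analysed here, among them every receptor, phosphatase, kinase and bZIP factor. COR15B, a close relative and direct neighbour of COR15A, had 8.38 on the cadmium array and 7.31 on the control array, a difference of 1.07, just past 2-fold. Whether the probes of COR15A and COR15B also bind the other's transcript was not tested. With 32 added to each linear value the difference of COR15B was 1.91-fold. LTI30, a cold-induced dehydrin that binds membranes, had 10.51 on the cadmium array and 8.82 on the control array, a difference of 1.69, or 3.22-fold. Only 19 plant probe sets had a larger difference than LTI30. DREB2C, a relative of DREB2A, shares its probe set with AT2G40350, and that probe set had 6.73 on the cadmium array and 6.47 on the control array, a difference of 0.26. Of these 3, COR15B and LTI30 were past the 2-fold limit as deposited, both upward, and only LTI30 was with 32 added. Over all plant probe sets, 0.422% were higher and 0.624% were lower by 2-fold or more as deposited. The lists were chosen with results of these data known, so this count tests nothing.

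Other dehydrins and LEA proteins differed in both directions. A search of the RefSeq symbols and synonyms for dehydrin or LEA names, made after values of these data were seen, found 7 further genes. Each had a probe set of its own. The search did not return the dehydrin LTI30 described above, so the 7 are not all the remaining dehydrins and LEA proteins. Over all plant probe sets, 54.7% had a difference above 0 and 44.7% one below 0 as deposited. The median difference of the 7 genes was -0.11 as deposited, with 2 above 0 and 5 below 0. When scaled to the hybridization controls, 4 were above 0 and 3 below. Their median was then 0.11, against 0.24 over all plant probe sets. HIRD11 (AT1G54410), a small histidine-rich dehydrin known to bind metal ions, had 7.58 on the cadmium array and 8.76 on the control array. Its difference of -1.18, a 2.26-fold lower value, was the only one of at least 2-fold among the 7, and 84 plant probe sets had a more negative one. Scaled to the hybridization controls it was -0.96 and no longer reached 2-fold.

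The other 6 differed less. LEA18 (AT2G35300) had 5.90 on the cadmium array and 6.38 on the control array, a difference of -0.48. LEA4-5 (AT5G06760), an LEA protein known from water deficit, had 6.88 on the cadmium array and 7.11 on the control array, a difference of -0.23. LEA27 (AT2G46140) was higher with cadmium, with 7.59 on the cadmium array and 7.29 on the control array, and the difference was 0.29. AtLEA4-1 (AT1G32560), the dehydrin AT2G21490 and LEA26 (AT2G44060) differed by -0.11, -0.11 and 0.02. With that scaling, AtLEA4-1 and AT2G21490 were above 0, at 0.11 each.

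**Figure D4:**
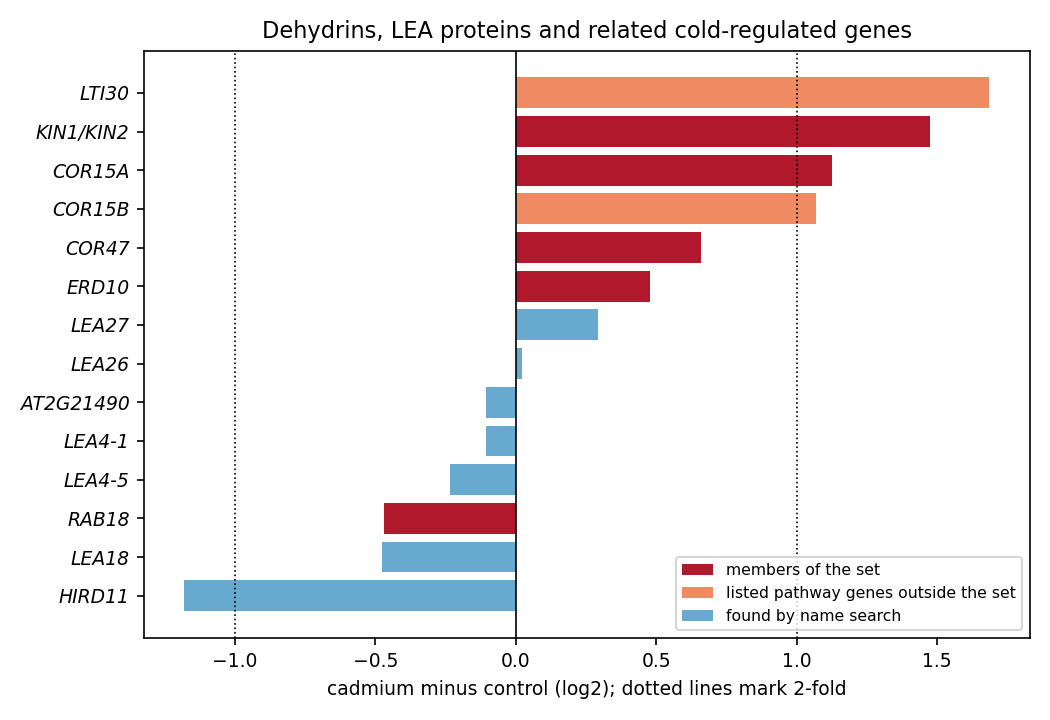
Difference between the cadmium and the control array (horizontal axis, log2; 1 array each, so without error bars) of dehydrins, LEA proteins and related cold-regulated genes, coloured by how they were chosen. The bars run from 1.69 for LTI30 to -1.18 for HIRD11, with KIN1/KIN2, COR15A and COR15B beside the first and RAB18 and LEA18 among the lower ones.

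Only 2 of the 11 marker genes listed for root and shoot tissue were paired with a probe set, too few to follow the share of either tissue. RCA, the activase of the carbon-fixing enzyme Rubisco and a marker of green tissue, had 12.77 on the cadmium array and 12.83 on the control array. EXPA7, an expansin of root hair cells, had 6.08 on the cadmium array and 6.74 on the control array, a difference of -0.67. The part of tissue share in the values above was not tested.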

How the data were processed

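Whole seedlings were measured on Affymetrix ATH1 arrays from 6 µg of total RNA, 1 array per group. The deposited table holds log2 values for 22810 probe sets, 22746 of them for plant transcripts. The authors made them with RMA and the R package affy, per the submitters' processing notes. Version, options and the arrays normalized together are not stated there. If quantile normalization was run, as is usual in RMA, an overall difference between the arrays would have been removed.

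Each difference is the cadmium value minus the control value, with no further scaling, filter or pseudocount, and 2-fold is 1 on the log2 scale. A deposited value has no count or depth behind it. The members and lists were chosen with earlier results of these data known. All 9 members are named, and pathway genes outside them only where a table pairs them with a probe set. The planned limit of naming, 2-fold, was widened after the values were seen to DREB2C, the tissue markers and the genes found by name. The gene table (platform annotation) gave 1 gene for 13513 plant probe sets and several for 503, and did not list 8730. It lists 3 of the 9 members (KIN1/KIN2, COR47, COR15A). The genes of the other 6 are those stated in the definition of the set. All 10 loci were found in RefSeq's TAIR10.1 table, where RD29A and RD29B have the symbols LTI78 and LTI65. 

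Alternatives were centring on the median difference, removal of a lowess curve (fraction 0.3), and 32 added to linear values. Scaling to the hybridization controls bioB, bioC, bioD and cre (mean difference -0.22) was another. Also used were limits of 1.5-fold and 3-fold, and the omission of probe sets ending in _s_at or _x_at. A filter that kept the upper 50% by mean level was applied to the counts over all plant probe sets only, not to the member counts. The counting code was run on simulated arrays with changes planted well past the 2-fold limit. Only the deposited, median and lowess settings were covered. That run checks the code and not the counts in these data. Python 3.11.15 with numpy 2.4.6, pandas 2.3.3, statsmodels 0.14.6 and matplotlib 3.10.9 was used.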

Additional observations from a re-analysis of the deposited data

How the results depend on the processing

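Of 36 member differences recomputed under the 4 scaling and offset alternatives, 1 changed sign, that of RD29B with the lowess curve, which left 2 members below 0. Scaled to the hybridization controls, the median difference was 0.88 over the members and 0.24 over all plant probe sets, since the mean difference of these controls, -0.22, is subtracted from every value. The member median was 0.57 without the _s_at and _x_at probe sets, which leaves out KIN1/KIN2. At 1.5-fold 5 members were higher, and at 3-fold 0. Over all plant probe sets the counts higher and lower were 96 and 142 as deposited. They were 332 and 566 at 1.5-fold, 23 and 28 at 3-fold, and 63 and 91 with 32 added. Among the upper 50% by mean level they were 84 and 120, and scaled to the hybridization controls 181 and 80. The share of higher ones was thus 69.3% with that scaling and 40.3% as deposited. No paired analysis was possible because each group has 1 array, and for the same reason no array could be left out. Without detection calls, the size of differences at low signal (NCED3, RD29B, COR15A) is uncertain.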

Other observations

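A search of the RefSeq names for other cold, drought, dehydration or ABA terms, made after values of these data were seen, found 4 further genes with a probe set of their own, and none of them was at least 2-fold different. COR27, a cold-induced gene that is also known as a regulator of the circadian clock, had 8.38 on the cadmium array and 9.31 on the control array, a difference of -0.93, or 1.91-fold lower. Scaled to the hybridization controls it was -0.72. DI21 had 7.80 on the cadmium array and 8.12 on the control array, a difference of -0.32. DI19 had 11.04 on the cadmium array and 11.10 on the control array, and DOR had 4.39 and 4.26. The time of day at harvest is not given for either sample in the labels, and its part in the value of COR27 was not tested.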
